A study of Homo sapiens with 6 samples.

Results

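The receptor genes described here from maps of open chromatin are EGFR, ERBB2, ERBB3 and ERBB4 (the epidermal growth factor receptor family), MET (the receptor of hepatocyte growth factor) and IGF1R (the receptor of insulin-like growth factors). They are 6 of the 20033 protein-coding genes with a span in the RefSeq table of GRCh38.p14, and were chosen by name. Every peak that overlapped a gene's span or the 20 kb on either side of it was taken as belonging to that gene. When the peaks of all libraries were merged wherever they overlapped by at least 1 bp, 298 of 507440 regions fell in these 6 windows. The material was NCI-H1703, an established human cell line labelled as lung squamous cell carcinoma, so both groups come from 1 line. The 3 silenced libraries came from cells in which DLGAP1-AS2, a long non-coding RNA, had been silenced (titled ASO), and the 3 control libraries from control cells of the same line (titled NC). The labels state neither how long the silencing lasted nor whether the libraries of a group came from separate cultures, so every p-value below measures the spread between these libraries, which may be technical.

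These receptors sit in the cell membrane. They signal as pairs, which the ligand brings together in the ERBB family and MET and which are already linked in IGF1R. In an active pair the kinase domains phosphorylate tyrosines, and adaptor proteins dock there and start the RAS-MAPK and PI3K-AKT cascades. ERBB2 binds no known ligand and works as a partner of the other ERBB receptors, and ERBB3 has little kinase activity of its own and recruits PI3K. In lung cancer, EGFR and MET are known as drug targets, and MET and ERBB3 as routes by which tumours escape EGFR inhibitors.

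ATAC-seq measures where a transposase can insert adapters into DNA, and a peak is a stretch with more insertions than its surroundings. The lists held 91346 to 170882 peaks on the chromosomes per library, of which 81 to 122 lay in the 6 receptor windows. Read totals are unknown. A relative measure of depth, the 0.1 percentile of the local background behind the peaks of a list, ran from 0.237 in silenced replicate 3 to 0.464 in control replicate 2. It lay between 0.369 and 0.402 in the other libraries. A height below is the authors' pileup signal of a peak, and it moves with this depth. In control replicate 2, 2.46% of peaks had a height under 4, against 48.1% to 52.1% in the other libraries. Weak regions can therefore be missing from this list alone, which limits counts of regions by number of libraries. Of 7 squamous markers, SOX2 alone had a peak within 1 kb of its start in all 6 libraries, and the other 6 (TP63, KRT5, KRT6A, KRT14, DSG3 and PKP1) had none with a false discovery rate (FDR, the authors' adjusted p-value) of at most 1e-05 in any library. Counting peaks of any FDR, 3 of 4 mesenchymal markers (VIM, ZEB1 and PDGFRA) had a start peak in all 6 libraries. So did 3 of 5 adenocarcinoma and alveolar markers (NKX2-1, NAPSA and SFTPC) and 2 of 5 neuroendocrine markers (NEUROD1 and SYP). Among epithelial markers 0 of 5 did, with 0 of 4 leukocyte and 0 of 3 endothelial markers, where 58.9% of all 20033 protein-coding genes did. In these counts, either end of the span stood for the start of a gene without an entry in the promoter table. With an FDR of at most 1e-05, the count was 1 each for the squamous, mesenchymal, adenocarcinoma and neuroendocrine lists. It was 0 for the epithelial, leukocyte and endothelial lists, against 45.8% of all genes. These are markers of RNA and protein, and open chromatin at a start does not measure either.

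The promoters of EGFR, IGF1R and ERBB4 are shown because they span the contrast seen in the peaks. EGFR's first start lay wholly inside a peak in every library, as did those of ERBB2 and MET. IGF1R's had the highest GC content of the receptors in the table but low peaks. ERBB4's had the lowest peaks, and EGFR's second start, inside the gene, lay mostly outside peaks. The sequences come from RefSeq on GRCh38.p14, run 5′ to 3′ on the gene's strand from 250 bases before the start to 50 after it, and positions are counted from the start. Capitals mark matches on either strand to 5 motifs, no 2 of which overlap in these sequences: the GC box GGGCGG, the CCAAT box CCAAT, the TATA box TATAAA, the AP-1 motif TGANTCA and the TEAD motif GGAATG.
EGFR first start, chr7:55018767-55019066, plus strand: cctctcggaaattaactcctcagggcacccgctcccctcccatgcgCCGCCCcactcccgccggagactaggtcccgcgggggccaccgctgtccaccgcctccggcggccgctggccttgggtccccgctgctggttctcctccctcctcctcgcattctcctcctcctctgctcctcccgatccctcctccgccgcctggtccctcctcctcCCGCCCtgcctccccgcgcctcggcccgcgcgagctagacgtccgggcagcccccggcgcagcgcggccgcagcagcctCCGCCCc
EGFR second start, chr7:55109589-55109888, plus strand: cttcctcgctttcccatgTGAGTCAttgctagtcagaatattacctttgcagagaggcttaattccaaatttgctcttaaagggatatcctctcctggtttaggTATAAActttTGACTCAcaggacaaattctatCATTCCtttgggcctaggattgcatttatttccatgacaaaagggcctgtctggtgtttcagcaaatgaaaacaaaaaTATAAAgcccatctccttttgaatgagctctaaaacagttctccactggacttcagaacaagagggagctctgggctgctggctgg
IGF1R, chr15:98648289-98648588, plus strand: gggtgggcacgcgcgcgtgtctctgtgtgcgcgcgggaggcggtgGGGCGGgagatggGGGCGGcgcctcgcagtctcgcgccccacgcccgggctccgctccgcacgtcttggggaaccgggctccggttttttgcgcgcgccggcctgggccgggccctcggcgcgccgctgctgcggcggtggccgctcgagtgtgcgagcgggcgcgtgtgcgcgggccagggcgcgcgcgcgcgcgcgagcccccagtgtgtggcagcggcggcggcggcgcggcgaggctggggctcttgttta
ERBB4, chr2:212538753-212539052, minus strand: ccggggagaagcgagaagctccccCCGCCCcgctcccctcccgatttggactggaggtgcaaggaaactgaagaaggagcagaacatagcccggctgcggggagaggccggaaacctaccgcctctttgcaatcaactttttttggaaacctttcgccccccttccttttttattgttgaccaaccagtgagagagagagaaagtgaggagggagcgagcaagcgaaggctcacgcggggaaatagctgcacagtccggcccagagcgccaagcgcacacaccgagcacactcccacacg

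The first EGFR promoter was 75.3% GC with 33 CpG dinucleotides and 3 GC boxes, and it held none of the other 4 motifs. All of its 300 bases lay in a peak in each library. The second EGFR promoter was 42.0% GC with 1 CpG, no GC box, 2 TATA boxes at −146 and −36, 2 AP-1 motifs at −232 and −136, and 1 TEAD motif at −114. In silenced replicate 1, 186 of its bases lay in a peak, and in the other 5 libraries 0 did. IGF1R's promoter was 79.7% GC with 55 CpGs, above 97.1% and 99.6% of the 35116 promoters in the table, and carried 2 GC boxes. Of its bases, 300, 300 and 59 lay in a peak in silenced and 300, 300 and 235 in control replicates 1 to 3. ERBB4's was 59.0% GC with 19 CpGs and 1 GC box. Of its bases, 0, 159 and 0 lay in a peak in silenced and 175, 0 and 300 in control replicates 1 to 3. Of the promoters not printed, MET's was 69.3% GC with 30 CpGs and 3 GC boxes, and ERBB2's was 60.7% GC with 24 CpGs, 1 CCAAT box and 1 AP-1 motif. In both, all 300 bases lay in a peak in each library. Over all 35116 promoters the median was 58.7% GC and 14 CpGs, and 45.0% held a GC box, 34.6% a CCAAT box, 11.5% a TATA box, 7.71% an AP-1 motif and 14.03% a TEAD motif. A match describes letters only. The table has no entry for ERBB3, for which both ends of the span were used.

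Each of the 6 genes had a peak within 1 kb of its start (for ERBB3, of an end of its span) in all 6 libraries, against 58.9% of all protein-coding genes. With peaks of an FDR of at most 1e-05 alone, this held for 4 of 6, against 45.8%. The exceptions were ERBB4, whose start passed that limit in control replicates 2 and 3 only, and IGF1R, whose start missed it in silenced replicate 3 and control replicate 3. In the shares of 58.9% and 45.8%, genes without an entry in the promoter table were counted as ERBB3 was, at either end of the span. Of the 20033 genes, 15842 had an entry.

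At the lower end of ERBB3, whose product pairs with ERBB2 and signals through PI3K, the peak heights were 40, 59 and 18 in silenced replicates 1 to 3 and 44, 47 and 41 in control replicates 1 to 3. At the start of EGFR, they were 39, 36 and 20 in silenced and 35, 42 and 32 in control libraries. The ERBB2 start had heights of 35, 48 and 11 in silenced and 34, 33 and 37 in control libraries. In each of these genes silenced replicate 3, the library of lowest background coverage, was lowest, and the groups overlapped. The ERBB2 region also lies within 1 kb of the start of PGAP3, a neighbouring gene, so this peak cannot be assigned to ERBB2 alone. The MET start had heights of 33, 37 and 17 in silenced and 28, 31 and 42 in control libraries, again with silenced replicate 3 lowest. IGF1R's start peak was lower in each library, at 12, 12 and 5 in silenced and 12, 17 and 11 in control libraries. That of ERBB4 was lowest of all, at 7, 3 and 4 in silenced and 5, 8 and 8 in control libraries, with silenced replicate 2 at the bottom.

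**Figure D1:**
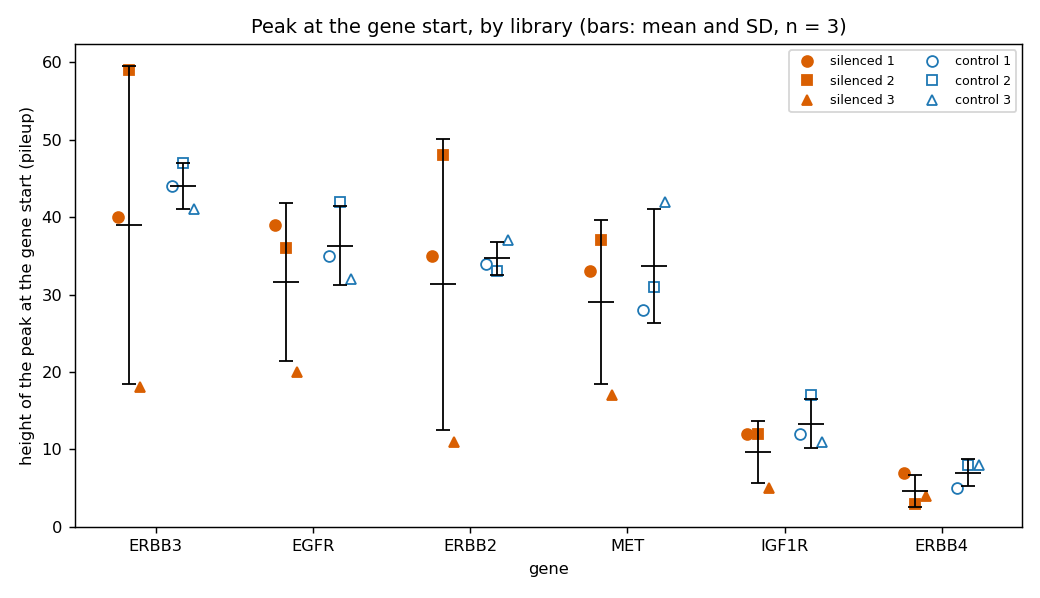
Height of the peak at the start of each receptor gene (y axis, the authors' pileup signal) in each library, with silenced and control libraries as separate points and their group means and SDs. For ERBB3 the peak is the tallest one within 1 kb of the lower end of its span. ERBB3, EGFR, ERBB2 and MET have medians of 32.0 to 42.5, IGF1R 12.0 and ERBB4 6.0, and silenced and control points overlap for every gene.

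Mean heights were 39.0 ± 20.5 (SD, n = 3) in silenced and 44.0 ± 3.0 in control libraries at ERBB3, 31.7 ± 10.2 and 36.3 ± 5.13 at EGFR, 31.3 ± 18.8 and 34.7 ± 2.08 at ERBB2, and 29.0 ± 10.6 and 33.7 ± 7.37 at MET. They were 9.67 ± 4.04 and 13.3 ± 3.21 at IGF1R, and 4.67 ± 2.08 and 7.0 ± 1.73 at ERBB4. Silenced replicate 3 was the lowest library at 5 of the 6 starts, and the part of its depth in the lower silenced means was not tested. The order by median was ERBB3 (42.5), EGFR (35.5), ERBB2 (34.5), MET (32.0), IGF1R (12.0) and ERBB4 (6.0). The ERBB3 peak ranked here, the tallest within 1 kb of the lower end, ended before the span in every library. Its midpoint lay −946 to −707 bp from that end. In all libraries but silenced replicate 2, another peak, no taller, also lay within 1 kb of that end. Those same libraries kept an ERBB3 peak when the limit was 500 bp. Midpoints lay −148 to −18 bp from the start at EGFR, −114 to −35 at ERBB2 and −108 to −35 at MET. They lay −372 to −12 bp from the start at IGF1R and −552 to −171 at ERBB4. Within single libraries, ERBB3 exceeded EGFR in 5 of 6, EGFR exceeded ERBB2 in 4 and ERBB2 exceeded MET in 4, so the first 4 genes did not separate beyond the spread over libraries. MET exceeded IGF1R in 6 of 6 libraries and IGF1R exceeded ERBB4 in 6 of 6, although the ranges over libraries overlapped for each of these neighbours.

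Across its whole window, EGFR (chr7:55019017-55211628, 193 kb) held 64 merged regions. Of these, 8 were called in all 6 libraries and 37 in 1 library only. The tallest was not at the start but 114 kb downstream of it, inside the gene at 55132593 to 55134115, a region of 1523 bp. Its heights were 90, 88 and 60 in silenced and 86, 93 and 78 in control libraries. The second tallest, 55.2 kb from the start at 55073895 to 55074515, reached 72, 63 and 60 in silenced and 99, 85 and 75 in control libraries. Both stood well above the 20 to 42 of the start peak in every library. A pair of adjacent regions 46.1 and 46.9 kb from the start had heights of 36, 42 and 21 against 34, 45 and 36, and of 40, 35 and 26 against 37, 30 and 38. All 8 shared EGFR regions overlapped the span, which also holds the antisense gene EGFR-AS1. The window takes in LOC105375284 as well. EGFR's second start had a peak within 1 kb in only 2 libraries, silenced replicate 1 (height 6) and control replicate 1 (height 5).

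The EGFR region 114 kb from the start exceeded the start peak in height, but not clearly in height relative to its surroundings. Fold enrichment, the authors' ratio of a peak's height to its local background, had a median of 10.8 there and 10.7 at the EGFR start, although the median heights were 87.0 and 35.5. The local background that these values give, (height + 1) / fold − 1, was 7.04, 7.74 and 4.06 in silenced and 7.04, 7.80 and 6.78 in control libraries. At the EGFR start its median was 2.28, and at the tallest MET region it was 1.53. The cause of the high local background was not tested.

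ERBB2 (chr17:39688094-39728658, 40.6 kb) had 22 regions, 6 of them in all libraries and 7 in 1 only, in a window shared with PNMT, PGAP3, MIR4728, MIEN1 and GRB7. Its tallest region, at 39730016 to 39730960 in the flank, lies within 1 kb of the start of MIEN1. It had heights of 38, 55 and 17 in silenced and 37, 59 and 45 in control libraries. Only 3 of the 6 shared regions overlapped the ERBB2 span: the start, a region 11.9 kb inside with heights of 22, 19 and 15 in silenced and 20, 24 and 17 in control libraries, and 1 near the far end with 13, 12 and 12 against 16, 19 and 14. At the last of these the silenced heights all lay under the control heights, while its rank score, defined below, differed by 0.06 ± 0.35 (SE) in the opposite direction and overlapped. No height at any region inside ERBB2 beyond its start exceeded 24 among these shared regions.

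The window of ERBB3 (chr12:56080108-56103505, 23.4 kb) is shared with LOC105369782, PA2G4, RPL41 and ZC3H10. Whether the region at the lower end also lies at the start of LOC105369782 was not tested. ERBB3 had 13 regions, 4 in all libraries and 5 in 1 only. Just 1 of the 4, at the lower end, overlapped the ERBB3 span. The tallest, 56103930 to 56104907, lies at the start of PA2G4, a gene whose product binds ERBB3, with heights of 113, 127 and 62 in silenced and 99, 133 and 123 in control libraries. The second tallest, at the start of ZC3H10 (56117834 to 56118631), had 105, 103 and 48 against 98, 113 and 90. A region at the start of RPL41, a ribosomal protein gene, had 21, 32 and 14 against 25, 29 and 25. Thus 3 of the 4 shared regions of this window lay at neighbouring genes.

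ERBB4 (chr2:211375717-212538802, minus strand), a receptor for neuregulins, was the longest gene at 1163 kb and had 79 regions, of which 64 were called in 1 library only and 3 in all 6. The ERBB4 window also takes in RNA5SP119, MTND2P23, MTCO1P46, LOC124906116 and MIR548F2. Its tallest shared region, 332 bp long at 211745306 to 211745637 and 793 kb from the start inside the gene, had heights of 14, 10 and 10 in silenced and 8, 7 and 10 in control libraries. The third shared region, at 211455257 to 211455597, had 4, 3 and 4 in silenced and 9, 6 and 6 in control libraries. The groups touched at 10 in the former, and in the latter the silenced heights lay under the control heights. All of these heights were low beside those at EGFR. Regions called in 1 library only made up 81.0% of the regions in the ERBB4 window, against 74.1% of all merged regions.

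MET (chr7:116672196-116798377, 126 kb) had 35 regions, 6 in all libraries and 22 in 1 only, in a window shared with COMETT, LOC124901824 and LOC124901731. Its tallest, 44.7 kb inside the gene at 116716616 to 116717195, had heights of 35, 55 and 25 in silenced and 43, 59 and 42 in control libraries. When regions called in all libraries were ranked by fold enrichment within each list, this one stood in the top 9.56%, 1.66% and 8.21% of silenced and the top 4.30%, 2.76% and 9.36% of control lists. By the same ranking the MET start stood at 18.4%, 19.8% and 20.3% against 27.6%, 28.4% and 11.0% from the top. In every library, then, the internal MET region ranked above the start.

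IGF1R (chr15:98648539-98964530, 316 kb) had 85 regions, 7 in all libraries and 62 in 1 only, and all 7 overlapped its span. The window also takes in the non-coding gene IRAIN and the neighbours PGPEP1L, MIR4714, LOC124903560 and LOC124903561. The tallest, 204 kb inside at 98852243 to 98853052, had heights of 33, 46 and 27 in silenced and 40, 52 and 34 in control libraries. A region just before it, 98850935 to 98851284, had 22, 30 and 13 against 26, 29 and 25, and 1 at 98779394 to 98780118 had 15, 21 and 15 against 23, 15 and 26. Each of these was taller than the start peak in all libraries but 1, control replicate 2 at 98779394. The IGF1R start stood low in the ranking by fold enrichment, between 70.2% and 90.8% from the top.

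**Figure D2:**
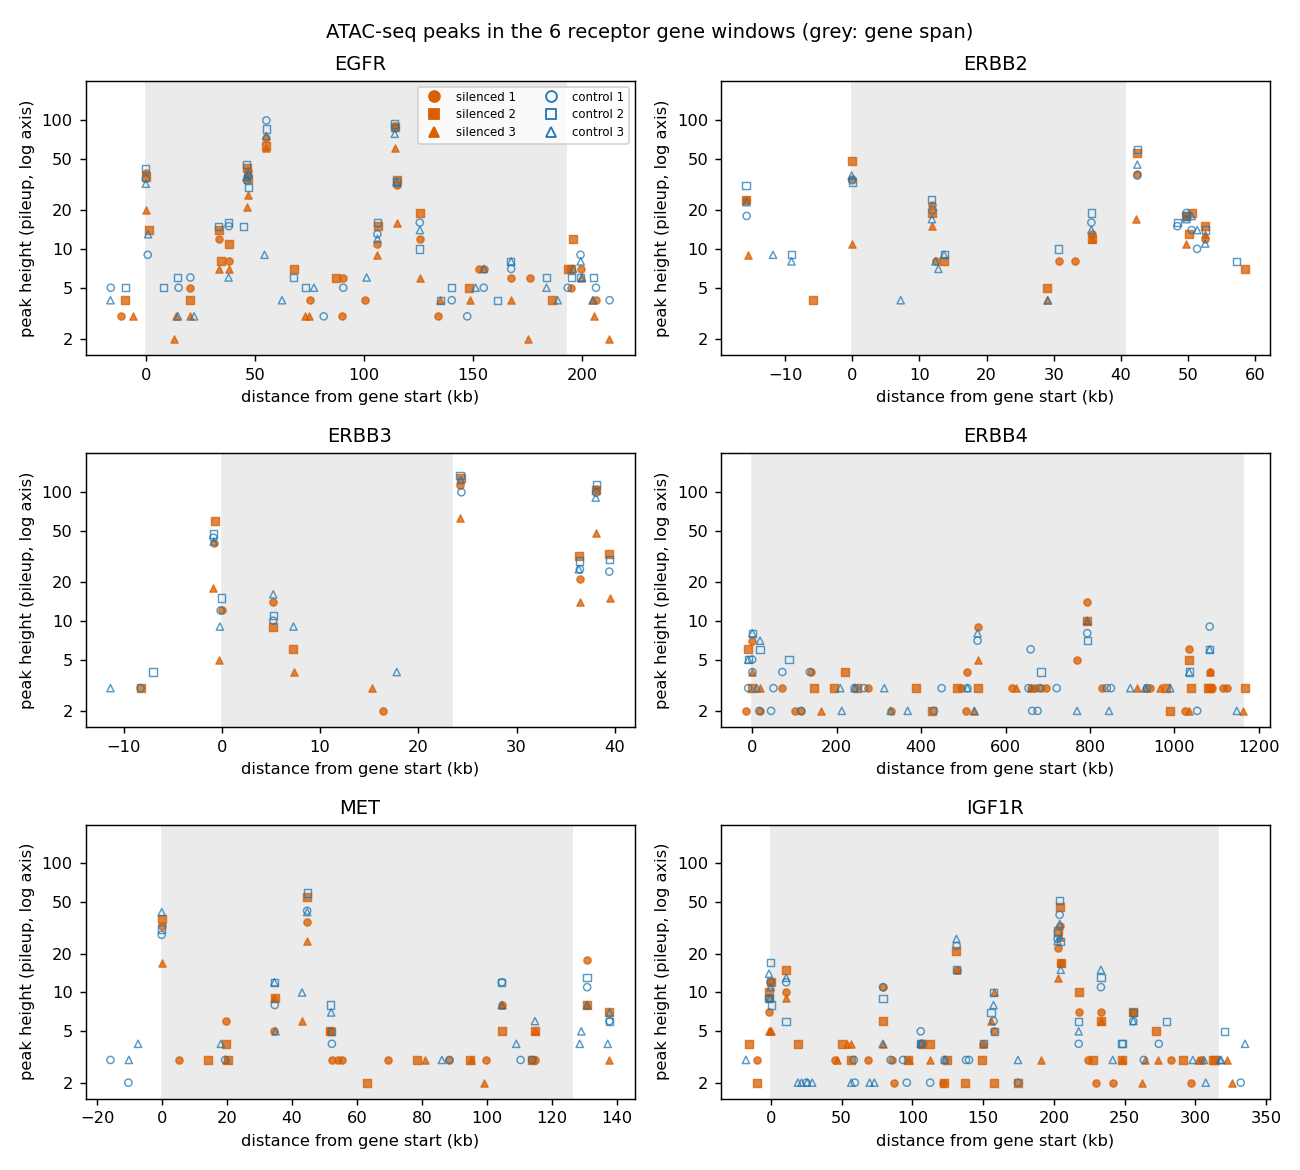
Peaks of the 6 libraries in the window of each receptor gene, by distance of the peak from the gene's start in kb (x axis) and height (y axis, the authors' pileup signal, log axis), with the gene's span in grey, filled symbols for silenced and open symbols for control libraries. The tallest regions of EGFR, MET and IGF1R lie 114 kb, 44.7 kb and 204 kb inside the gene, those of ERBB2 and ERBB3 lie beyond the span at MIEN1 and PA2G4, and no ERBB4 peak is higher than 14.

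Over all 6 windows, 34 of 298 regions were called in every library (11.4%, against 7.35% of all 507440 merged regions) and 197 in 1 library only (66.1%, against 74.1%). Heights of the 34 regions did not overlap between the groups at 4 (ERBB4 211455257, EGFR 55073895, IGF1R 98881531 and ERBB2 39723552), all with control higher, against 8.79% of the 37284 regions called in every library, and at 0 with silenced higher, against 0.161%. Heights are not scaled for depth, and silenced replicate 3 has the lowest background coverage, so heights were not tested between groups. The share in every library ran from 3.80% at ERBB4 through 8.24% at IGF1R, 12.5% at EGFR, 17.1% at MET and 27.3% at ERBB2 to 30.8% at ERBB3.

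Because a long list holds more weak peaks, each list was cut to the 91346 peaks of lowest p-value, the size of the shortest, before peaks were counted per gene. In these lists of equal size ERBB2 had 13.7 peaks per 100 kb of window, more than 94.1% of the 20033 protein-coding genes, and ERBB3 had 11.6, more than 88.5%. EGFR had 8.60 (percentile 74.1), MET 6.32 (56.2) and IGF1R 5.20 (45.8). ERBB4 had 0.748, more than 5.81% of genes. The quartiles over all genes were 3.16, 5.63 and 8.73. With peaks of an FDR of at most 1e-05 the order of the genes was the same, from 8.07 at ERBB2 and 7.62 at ERBB3 through 3.44 at EGFR, 3.01 at MET and 2.11 at IGF1R to 0.166 at ERBB4. The windows of ERBB2 and ERBB3 are short and take in the starts of other genes, and those of ERBB4 and IGF1R are mostly intragenic, so the density describes the neighbourhood and not the receptor gene alone.

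**Figure D3:**
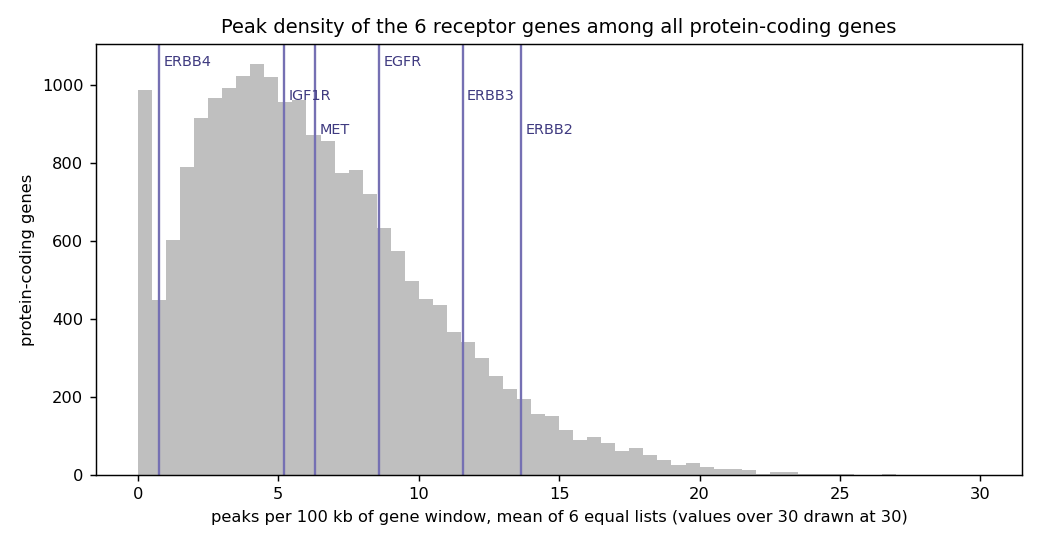
Histogram of the 20033 protein-coding genes (y axis, number of genes) by peaks per 100 kb of window, mean of the 6 lists of equal size (x axis), with vertical lines at the receptor genes. ERBB2 (13.7) and ERBB3 (11.6) lie above the upper quartile of 8.73, EGFR (8.60) just under it, and ERBB4 (0.748) under the lower quartile of 3.16.

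The study's contrast asks whether silencing of DLGAP1-AS2 went with a change of open chromatin at these genes. In the equal lists, ERBB3 had 6, 7 and 7 peaks in silenced and 8, 8 and 8 in control libraries. All silenced libraries were lower, and the log2 difference of peaks + 1 was −0.23 ± 0.10 (SE; limma, unadjusted p = 0.0587, Benjamini-Hochberg adjusted p = 0.746 over 18410 genes). It was the 1 gene of the 6 whose groups did not overlap, against 3.43% of the 18410 genes with higher control counts and no overlap, and 0 of 6 had non-overlapping counts higher in silenced libraries, against 1.84%. When peaks of a height of at least 4 were counted, ERBB3 had 6, 7 and 7 against 7, 8 and 8, and the groups overlapped.

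EGFR had 19, 20 and 18 peaks in silenced and 18, 24 and 21 in control libraries. ERBB2 had 10, 13 and 8 against 9, 12 and 14, and MET had 10, 10 and 12 against 8, 8 and 15. Groups overlapped in each of these 3 genes. IGF1R had 16, 19 and 24 peaks in silenced and 14, 21 and 17 in control libraries. ERBB4 had 13, 4 and 10 against 10, 8 and 9, so that its lowest and highest counts were both in silenced libraries. The log2 differences were −0.13 ± 0.13 (SE) for EGFR, −0.16 ± 0.22 for ERBB2, −0.12 ± 0.39 for ERBB4, 0.09 ± 0.25 for MET and 0.17 ± 0.20 for IGF1R, beside a median of −0.03 over all genes tested. By limma with Benjamini-Hochberg adjustment none of the 6 genes passed 0.05 (adjusted p = 0.746 to 0.964), where 0.0109% of the 18410 genes did. At an unadjusted p under 0.05 there were likewise 0 of 6, against 6.54%.

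**Figure D4:**
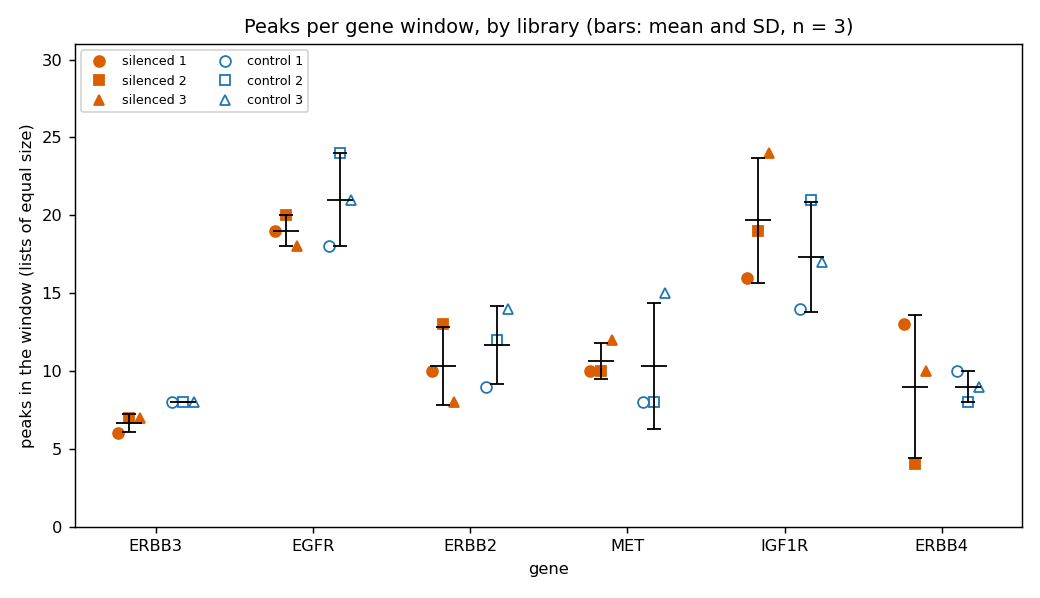
Number of peaks in the window of each receptor gene in lists of equal size (y axis), 1 point per library, silenced beside control, with group means and SDs. ERBB3 is the only gene whose silenced points (6 to 7) all lie under its control points (8), and ERBB4 in silenced libraries runs from 4 to 13.

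In the full lists the same windows held 24, 21 and 24 peaks in silenced and 22, 24 and 26 in control libraries at EGFR, and 27, 31 and 27 against 27, 21 and 31 at IGF1R. ERBB4 had 28, 18 and 14 against 27, 8 and 22, and MET 16, 15 and 13 against 13, 8 and 18. Control replicate 2, which has the shortest list, was lowest at ERBB4, MET and IGF1R. ERBB2 had 10, 13 and 8 against 9, 12 and 16, and ERBB3 7, 8 and 8 against 8, 8 and 9.

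No region in the 6 windows was called in every library of 1 group and in no library of the other: 0 of 298 in silenced only, against 0.130% of all merged regions, and 0 of 298 in control only, against 0.200%.

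For the 34 regions called in all libraries, each list's ranks by fold enrichment over the 37284 such regions were turned into normal scores, and the groups were compared with limma, adjusted by Benjamini-Hochberg over all 37284. None of the 34 passed 0.05 (adjusted p = 0.963 to 0.9996), and none of all regions did (0.00%). At an unadjusted p under 0.05 there were 2 of 34, against 4.68% of all regions. Scores were higher in silenced libraries at 19 of the 34 and lower at 15, with a median difference of 0.06, beside 0.01 over all regions. By gene, the median difference was 0.12 over 8 regions at EGFR, 0.04 over 6 at ERBB2, 0.08 over 4 at ERBB3, −0.51 over 3 at ERBB4, 0.01 over 6 at MET and −0.10 over 7 at IGF1R.

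The 2 regions with an unadjusted p under 0.05 lay inside IGF1R and ERBB4. The IGF1R region, 441 bp at 98881531 to 98881971 and 233 kb from the start, had heights of 7, 6 and 6 in silenced and 11, 13 and 15 in control libraries. All silenced values were lower. Its score was −0.66 ± 0.43 (SD, n = 3) in silenced and 0.09 ± 0.23 in control libraries, a difference of −0.75 ± 0.34 (SE; limma, unadjusted p = 0.0376, adjusted p = 0.963). It was the only one of the 34 whose scores did not overlap with control higher, against 4.78% of all shared regions, and 0 of 34 did so with silenced higher, against 5.39%. An exact two-sided permutation test gave p = 0.1, the smallest that 3 libraries against 3 allow.

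The ERBB4 region was the tallest one described above (14, 10 and 10 against 8, 7 and 10). Its score was 0.34 ± 0.38 (SD, n = 3) in silenced and −0.43 ± 0.39 in control libraries, a difference of 0.77 ± 0.31 (SE; limma, unadjusted p = 0.0251, adjusted p = 0.963), with an exact permutation p of 0.2 and overlapping scores. The other shared ERBB4 regions had differences of the opposite sign that did not pass the test, −0.86 ± 0.47 at 211455257 and −0.51 ± 0.48 at the start (unadjusted p = 0.0842 and 0.299, adjusted p = 0.963 and 0.965). So the 3 shared ERBB4 regions did not share a direction. Both regions had limma's unadjusted p over 0.05 when certain single libraries were left out (silenced replicate 1 or 2 or control replicate 2 or 3 for IGF1R, and silenced replicate 1 or 3 or control replicate 2 for ERBB4), and the IGF1R region also when regions were ranked by p-value or by height.

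At the other starts the score differences were small beside their errors: 0.08 ± 0.23 (SE) at EGFR, −0.03 ± 0.27 at ERBB2, −0.01 ± 0.22 at the lower end of ERBB3, 0.06 ± 0.23 at MET and −0.31 ± 0.39 at IGF1R (limma, adjusted p = 0.968 to 0.9996). The tallest regions differed by 0.24 ± 0.24 at EGFR, −0.03 ± 0.22 at ERBB2, 0.06 ± 0.20 at ERBB3, −0.04 ± 0.24 at MET and −0.03 ± 0.23 at IGF1R. Of the regions with the smallest p in their gene, that of EGFR (55065573) differed by 0.39 ± 0.31, that of ERBB2 (39699767) by 0.36 ± 0.28, that of ERBB3 (56116207) by 0.24 ± 0.45 and that of MET (116802778 to 116803188, in the flank) by 0.38 ± 0.34, with adjusted p = 0.965 to 0.975 by limma. The MET flank region had heights of 18, 8 and 8 in silenced and 11, 13 and 8 in control libraries.

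**Figure D5:**
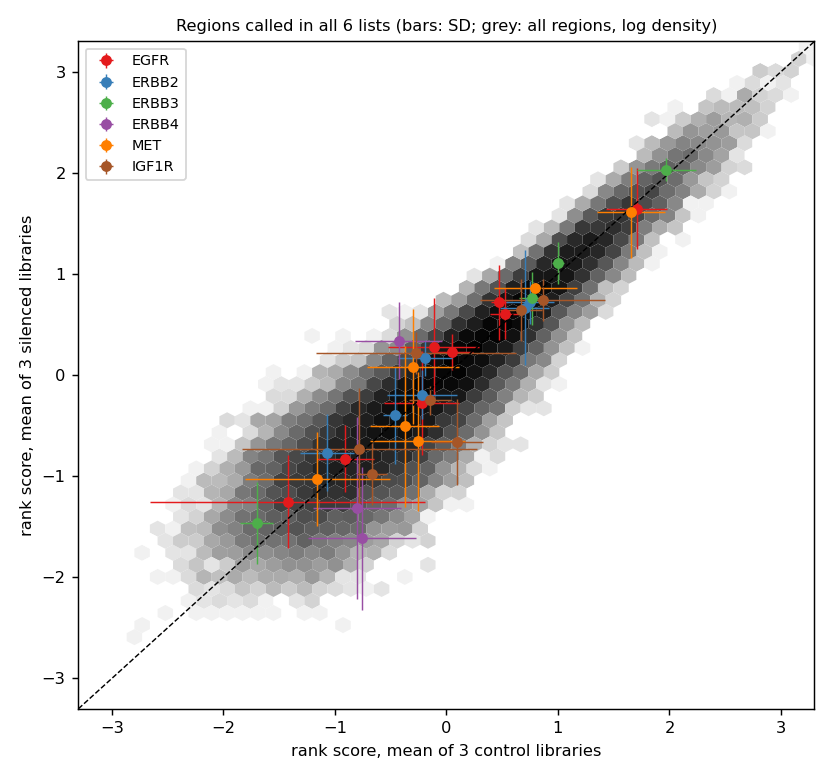
Mean rank score over 3 silenced libraries (y axis) against the mean over 3 control libraries (x axis) for the 34 regions of the receptor genes called in all libraries, coloured by gene, with bars of 1 SD; a higher score is nearer the top of the list, grey shows all 37284 shared regions as a log density, and the dashed line marks equal scores. The receptor regions scatter on both sides of the line within the grey cloud, 19 above it and 15 below.

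The other genes of these pathways were counted the same way. Of 71 genes in 6 lists, 70 had enough peaks to be tested. None passed an adjusted p of 0.05 in either direction, 32 had more and 38 fewer peaks in silenced libraries, and the median log2 difference was −0.02, beside −0.03 over all genes. At an unadjusted p under 0.05 there were 6 of 70, against 6.54% of all genes tested. Counts did not overlap between the groups at 4 of 70 with silenced higher (EGF, NRG3, PIK3CA and ADAM10), against 1.84% of all genes, and at 1 of 70 with control higher (HBEGF), against 3.43%. A start peak in all libraries was found at 54 of the 71, against 58.9% of all genes, and the counts by list below stand beside that share. With peaks of an FDR of at most 1e-05 alone it was found at 41 of the 71, against 45.8% of all genes. By list this was 4 of 14 ligands, 2 of 4 related receptors, 10 of 15 adaptors and first enzymes and 12 of 17 inhibitors and turnover genes. It was 11 of 13 immediate early and feedback targets and 2 of 8 binding proteins and sheddases.

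Among 14 ligands, 6 had a start peak in all libraries: TGFA, AREG, BTC and HBEGF, which bind EGFR, and the neuregulins NRG2 and NRG4, which bind ERBB4 (NRG2 also ERBB3). EGF, EREG, HGF (the ligand of MET) and IGF1 (that of IGF1R) had none in any library. With an FDR of at most 1e-05, NRG4 had a start peak in 0 libraries and TGFA in 5, while AREG, BTC, HBEGF and NRG2 kept theirs in all 6. Of the 13 tested, 8 had more and 5 fewer peaks in silenced libraries (median 0.10). The densest was HBEGF, at 16.1 peaks per 100 kb, with 8, 8 and 5 peaks in silenced and 9, 12 and 10 in control libraries, all silenced counts being lower. Its log2 difference was −0.52 ± 0.20 (SE; limma, unadjusted p = 0.0448, adjusted p = 0.746). The sparsest was IGF1, at 0.397 per 100 kb. Outside the naming rule and after seeing their values, 3 more ligands had an unadjusted p under 0.05, which makes 4 of the 13 tested, beside 6.54% of all genes. NRG3, a ligand of ERBB4, had 20, 17 and 17 peaks against 8, 5 and 14 (1.02 ± 0.33, adjusted p = 0.708 by limma). EGF had 6, 7 and 5 against 4, 2 and 4 (0.72 ± 0.25, adjusted p = 0.709), and AREG 2, 3 and 4 against 1, 2 and 1 (0.77 ± 0.27, adjusted p = 0.709). The counts of AREG met at 2.

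Adaptors and first enzymes, which carry the signal from the receptor tails, had a start peak in all libraries at 14 of 15 genes, with 7 of 15 having more and 8 fewer peaks in silenced libraries (median −0.01). SHC1, an adaptor that links receptors to RAS, was the densest at 20.2 per 100 kb. PIK3CA, the catalytic subunit of PI3K, was the sparsest at 2.02, with 4, 4 and 4 peaks in silenced and 2, 1 and 1 in control libraries. All silenced counts were higher, by 1.13 ± 0.20 on the log2 scale (SE; limma, unadjusted p = 0.00149, adjusted p = 0.609), and the difference rests on a few peaks. Inhibitors and turnover genes, such as ubiquitin ligases that remove receptors, had a start peak in all libraries at 15 of 17, with 7 having more and 10 fewer peaks (median −0.05). RNF41, a ligase that acts on ERBB3, was the densest at 13.4 and CBLB, a ligase that acts on EGFR, the sparsest at 0.787.

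Immediate early and feedback targets, which are transcribed when these cascades are active, had a start peak in all libraries at 13 of 13 genes, with 5 having more and 8 fewer peaks (median −0.06). FOSL1, an AP-1 subunit, was the densest at 22.7 and ETV5, a transcription factor, the sparsest at 4.70. Binding proteins and sheddases had a start peak in all libraries at 4 of 8, with 3 having more and 5 fewer peaks (median −0.04). IGFBP4, which binds insulin-like growth factors, was the densest at 13.5. ADAM10, a sheddase that releases ligands, was the sparsest at 1.16, with 3, 3 and 3 against 2, 1 and 2 peaks, higher in all silenced libraries (0.61 ± 0.20, adjusted p = 0.708 by limma). The 4 related receptors had 2 with more and 2 with fewer peaks (median 0.16) and a start peak in all libraries at 2, the densest being INSRR at 10.2 and the sparsest INSR, the insulin receptor, at 3.98.

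The gene elsewhere whose peak counts in equal lists followed those of each receptor most closely over the 6 libraries was CUL2 for EGFR (Pearson r = 0.988), ITIH5 for ERBB2 (0.988), AAAS for ERBB3 (1.0), SNX9 for ERBB4 (0.981), ACADVL for MET (0.998) and NRTN for IGF1R (0.991). These describe 6 points that share their libraries and list length. Each named gene had the highest r of the 8803 to 8810 genes compared with that receptor. Between 41 and 128 of them reached an r over 0.9, so the single nearest gene is 1 of many. The r of 1.0 for AAAS rests on counts of 5, 6 and 6 in silenced and 7, 7 and 7 in control libraries.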

How the data were processed

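ATAC-seq libraries of 3 silenced and 3 control samples of NCI-H1703 cells, 10000 to 50000 cells each per the labels' protocol, were represented by 1 peak list each. The submitters' processing notes name Trimmomatic 0.36, Bowtie2 2.2.6, Picard 2.8.2, MACS2 2.1.1, bedtools 2.25.0 and GRCh38, without roles or settings. Whether reads were shifted for the transposase, and whether duplicates were removed, is not given in the sources used here. Per the file headers, each deposited peak has a fold enrichment (a ratio to local background), a p-value, an FDR and a pileup signal. All 4 are the authors' values, and peaks were ordered or selected by them inside 1 list at a time. The lists hold no read counts, so depth in reads is unknown and only its relative measure is given.

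Spans came from RefSeq (GRCh38.p14), and starts from a promoter table that matched 15842 of 20033 protein-coding genes and 5 of the 6 receptors. For a gene without an entry, either end of its span counted as a start. Equal lists held 91346 peaks of lowest p-value, with ties drawn at random under a fixed seed. Peaks at the last, tied p-value numbered 13375, 7246 and 646 in silenced and 9326, 46 and 9531 in control replicates 1 to 3. Window counts of weak peaks therefore depend partly on the draw. With a second draw the log2 difference was −0.033 at ERBB4 (−0.12 in the main draw), −0.033 at MET (0.09) and 0.22 at IGF1R (0.17). At EGFR, ERBB2 and ERBB3 it was unchanged. Windows were tested on log2(peaks + 1) for 18410 genes with a mean of at least 1 peak, and shared regions on normal scores of ranks, both with limma 3.58.1 (mean trend) in R 4.3.3 and Benjamini-Hochberg adjustment over all features. Scripts were tested on simulated data. No genome sequence was used, so exons, introns and UTRs were not analysed here. Replicate numbers were not used to pair the samples, since the titles do not say that a number was handled together. Rank-score deviations from group means were nearly uncorrelated between same-numbered libraries (−0.002, 0.0024 and −0.0083). These correlations cannot show how the samples were handled.

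The 6 genes and the pathway and marker lists were chosen with earlier results of these data known. Named throughout were the 6 genes, and for each its region at the start, the tallest by median height, any called in 1 group only and the one with the smallest p. Per pathway list the densest and the sparsest gene were named, and per receptor the gene of highest correlation among those with a mean of at least 5 peaks. Neighbours in a window and other shared regions were named as such. Alternatives covered what was ranked or counted, filters, pseudocount, flank, merging, start distance, a replicate block and each library left out.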

Additional observations from a re-analysis of the deposited data

How the results depend on the processing

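No receptor window and no shared receptor region passed an adjusted p of 0.05 under any alternative run, replicate block included (0 called in both tests, and 0 of all genes in the window test). Over all genes, 2 windows passed in the main test, 128 with an FDR of at most 1e-05, 83 with a flank of 0 kb, 12 with no filter and 1 with a second random draw of tied peaks, an alternative chosen after seeing the data. It was 0 with full lists, with a height of at least 4 and with a flank of 50 kb, 3, 7 and 2 without silenced replicate 1, 2 and 3, and 0 without any one control replicate. The median of all genes moved to −0.12 with an FDR of at most 1e-05 and to −0.14 with a height of at least 4. Direction changed at these settings. Ranking by p-value gave −0.071 at the ERBB3 region 56103930 and 0.001312 at the IGF1R region 98852243, and ranking by height −0.056 and 0.049. The window difference of ERBB2 was 0.11 with a flank of 0 kb, that of ERBB4 0.066 with full lists and 0.067 with a flank of 50 kb, that of MET −0.16 with an FDR of at most 1e-05, −0.26 with a height of at least 4 and −0.033 with the second draw, and that of IGF1R −0.057 and −0.065 at the first 2 of these. Leaving out each library gave −0.020 to 0.22 at the EGFR start 55018589, −0.26 to 0.29 at the ERBB2 start 39687666, −0.15 to 0.075 at 39730016, −0.14 to 0.12 at the ERBB3 end 56078755, −0.094 to 0.14 at 56103930, −0.83 to 0.002663 at the ERBB4 start 212538544, −0.051 to 0.28 at the MET start 116671731, −0.30 to 0.11 at 116716616, −0.17 to 0.14 at the IGF1R region 98852243, −0.43 to 0.32 for the ERBB4 window and −0.045 to 0.37 for the MET window. Without a change of direction, the EGFR region 55132593 ranged from 0.047 to 0.42 and 55065573 from 0.16 to 0.64, ERBB2 39699767 from 0.24 to 0.48, ERBB3 56116207 from 0.075 to 0.46, MET 116802778 from 0.090 to 0.66, the IGF1R start 98646940 from −0.42 to −0.13, and the windows of EGFR from −0.23 to −0.033, ERBB2 from −0.33 to −0.0097 and IGF1R from 0.026 to 0.31. The IGF1R region 98881531 ranged from −0.97 to −0.54, the ERBB4 region 211745306 from 0.57 to 0.98 and the ERBB3 window from −0.27 to −0.17. The causes were not tested. A flank of 50 kb added 1 silenced-only region (heights 4, 3 and 3). Leaving out 1 library gave 0 to 2 silenced-only and 0 to 6 control-only regions, the 6 without control replicate 2. A start peak in all libraries was found for 4 of 6 genes with an FDR of at most 1e-05, 5 with equal lists and 4 within 500 bp. Unadjusted p-values under 0.05 in the window test appeared for ERBB3 with no filter and without silenced replicate 2 or 3, and for MET without control replicate 3.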
